A study of Mus musculus with 10 samples.

Results

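HEB sites found with both siRNAs were examined in Comma-Dβ cells, an established mouse mammary epithelial line. Of the 1489 peak summits in the list for the siRNA pool against Id4 (siID4) and the 560 in the list for the non-targeting pool (siNT), 186 pairs were taken. The pairs were chosen by position: an siID4 and an siNT summit had to lie within 200 bp of each other. A summit enters a list only past the threshold of the authors' peak calling, so the members were also selected on their scores in both lists. Summits on unplaced scaffolds, on chromosome 9 below 3.1 Mb, on chromosome 11 above 110 Mb and in 6 bins of 1 Mb (from 85 Mb of chromosome 1, 3 Mb of chromosome 4, 15 Mb of chromosome 5, 20 Mb of chromosome 8, 3 Mb of chromosome 11 and 31 Mb of X) were left out. This left 956 siID4 and 363 siNT summits, of which the pairs are 19.5% (95% exact binomial interval 17.0 to 22.1) and 51.2% (46.0 to 56.5). These shares follow from the rule and are given as a description.

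Per the labels, cells at passage 28 were transfected with 20 nM of either pool and collected 48 h later, and chromatin was precipitated with an antibody against HEB. There were 3 libraries per siRNA, and 4 input libraries (without antibody) are labelled for both. No siRNA dose or harvest time is recorded for the inputs. The labels describe a single cell line, do not say whether the libraries came from separate cultures, and give no measurement of the knockdown. The deposited lists hold 1 position and 1 score per summit and no value per library, so no value has an error between replicates, depth is unknown, and intervals cover counting error only. As the inputs are labelled for both siRNAs, the lists may share them and are not taken as independent of each other.

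HEB, the product of Tcf12, belongs to the E proteins, basic helix-loop-helix transcription factors that bind DNA as dimers at E-boxes, sites of the form CANNTG. ID proteins such as ID4 have the helix-loop-helix but lack the basic region that contacts DNA, so an E protein paired with an ID protein is kept from binding. In the mammary gland ID4 is known as a regulator of basal epithelial cells.

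The sequence at a shared site could be read where a summit fell inside a promoter window, which runs from 250 bp before to 50 bp after a start site in RefSeq (GRCm38.p6, the assembly behind mm10). In 7 of the 184 pairs on chromosomes with listed start sites, the siID4 summit lay in such a window. These 7 promoters are shown because they are the shared sites whose bases can be set beside the summit. Each is written 5′ to 3′ on the strand of its gene, and capitals mark E-boxes (CANNTG) and the H1 box (AAACACA or its complement), an element known from linker histone promoters.
H1f2 promoter, chr13:23738557-23738856, plus strand: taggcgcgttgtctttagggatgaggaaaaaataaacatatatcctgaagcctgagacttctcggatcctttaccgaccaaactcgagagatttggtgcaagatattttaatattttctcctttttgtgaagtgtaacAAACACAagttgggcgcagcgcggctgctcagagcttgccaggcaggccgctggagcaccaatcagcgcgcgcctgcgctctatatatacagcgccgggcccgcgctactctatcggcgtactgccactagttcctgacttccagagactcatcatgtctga
H1f3 promoter, chr13:23554782-23555081, plus strand: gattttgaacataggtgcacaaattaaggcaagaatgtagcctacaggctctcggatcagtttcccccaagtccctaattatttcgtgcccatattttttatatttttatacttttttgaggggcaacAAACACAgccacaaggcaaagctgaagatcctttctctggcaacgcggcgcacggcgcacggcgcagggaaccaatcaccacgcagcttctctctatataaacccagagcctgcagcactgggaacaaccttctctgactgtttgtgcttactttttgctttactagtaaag
H1f4 promoter, chr13:23622509-23622808, minus strand: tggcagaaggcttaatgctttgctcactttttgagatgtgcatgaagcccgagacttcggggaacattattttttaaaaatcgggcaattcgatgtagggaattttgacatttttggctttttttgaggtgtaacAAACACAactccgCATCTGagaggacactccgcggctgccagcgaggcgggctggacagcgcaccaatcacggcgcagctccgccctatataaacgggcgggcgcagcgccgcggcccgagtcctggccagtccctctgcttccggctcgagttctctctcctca
H1f5 promoter, chr13:21780576-21780875, minus strand: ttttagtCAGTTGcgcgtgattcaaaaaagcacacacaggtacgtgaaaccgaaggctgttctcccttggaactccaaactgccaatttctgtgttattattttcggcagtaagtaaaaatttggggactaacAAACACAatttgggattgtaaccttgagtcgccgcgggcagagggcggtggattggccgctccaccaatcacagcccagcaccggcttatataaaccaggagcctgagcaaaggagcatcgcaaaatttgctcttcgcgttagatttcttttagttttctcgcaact
Pcolce promoter, chr5:137611355-137611654, minus strand: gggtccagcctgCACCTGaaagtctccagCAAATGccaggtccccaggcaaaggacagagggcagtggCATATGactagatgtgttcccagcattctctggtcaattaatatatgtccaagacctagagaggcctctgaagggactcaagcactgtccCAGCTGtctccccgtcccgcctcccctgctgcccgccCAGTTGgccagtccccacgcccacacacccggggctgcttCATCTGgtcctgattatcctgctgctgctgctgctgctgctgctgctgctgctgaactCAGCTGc
Gm8883 promoter, chr1:71887862-71888161, plus strand: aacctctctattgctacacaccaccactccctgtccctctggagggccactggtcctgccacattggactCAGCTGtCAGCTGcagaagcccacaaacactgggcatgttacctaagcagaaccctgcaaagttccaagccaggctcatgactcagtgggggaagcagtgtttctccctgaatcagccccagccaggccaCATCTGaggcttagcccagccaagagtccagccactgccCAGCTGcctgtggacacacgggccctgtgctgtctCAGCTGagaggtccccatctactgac
Lrpprc promoter, chr17:84790737-84791036, minus strand: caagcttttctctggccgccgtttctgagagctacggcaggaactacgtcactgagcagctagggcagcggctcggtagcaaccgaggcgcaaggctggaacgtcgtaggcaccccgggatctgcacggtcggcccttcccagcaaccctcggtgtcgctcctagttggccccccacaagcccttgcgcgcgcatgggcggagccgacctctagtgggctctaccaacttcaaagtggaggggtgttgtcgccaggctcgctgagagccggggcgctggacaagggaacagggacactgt

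The promoters of H1f2, H1f3, H1f4 and H1f5, which encode linker histones that bind DNA between nucleosomes, all carried the H1 box. Of all 32851 listed promoters, 7.18% held the H1 box on either strand. Because the H1 box is known from linker histone promoters, this share is no measure of enrichment at shared sites. The promoters of Pcolce, Lrpprc and Gm8883 held none. The plan named E-box forms only, and the H1 and CCAAT boxes were added to it. The centre of the H1 box lay 28 bp upstream of the siID4 summit in H1f2, 10 bp upstream in H1f3, 9 bp upstream in H1f4 and 37 bp downstream in H1f5. Relative to the start, the siID4 summits lay at -81, -109, -103 and -151 bp in these 4 genes. The siNT summits lay at -79, -63, -288 and -129 bp, so the distances do not hold for the siNT summits of H1f3, H1f4 and H1f5. All 4 also held a CCAAT box (CCAAT on either strand, found in 37.4% of promoters). Their E-box counts were near the median of 1 over all promoters: H1f2 and H1f3 had 0, as do 27.7% of promoters, H1f4 had 1 at about 3 bp from the siID4 summit, and H1f5 had 1 at about 89 bp. A count of 1 or fewer was found in 60.4% of promoters. The promoter of Lrpprc, whose product acts in mitochondrial RNA metabolism, had 0 E-boxes. An E-box of some form occurred in 72.3% of all promoters, so its presence is common.

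More E-boxes were found in Pcolce and Gm8883. Pcolce had 7, a number that 99.9% of promoters do not exceed, of which 2 read CAGCTG, 1 CACCTG and 1 CATCTG; the nearest was about 15 bp upstream of the siID4 summit. Gm8883, a long noncoding RNA gene, had 5, a number that 99.3% of promoters do not exceed, of which 4 read CAGCTG, the nearest about 56 bp from the siID4 summit. These distances were taken from the siID4 summit only. Relative to the start, it lay at 3 bp in Pcolce and -114 bp in Gm8883, and the siNT summit at 35 and -24 bp. The E-box nearest to the siNT summit was another: a CAGCTG at 43 to 48 bp in Pcolce and a CAGCTG at -11 to -6 bp in Gm8883. CAGCTG occurred in 16.3% of all promoters, CAGGTG or CACCTG in 20.2%, CATCTG or CAGATG in 17.2% and CACGTG in 7.15%. The 7 promoters were chosen by where summits fell, and a match describes the letters in the window, not a bound site.

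**Figure D1:**
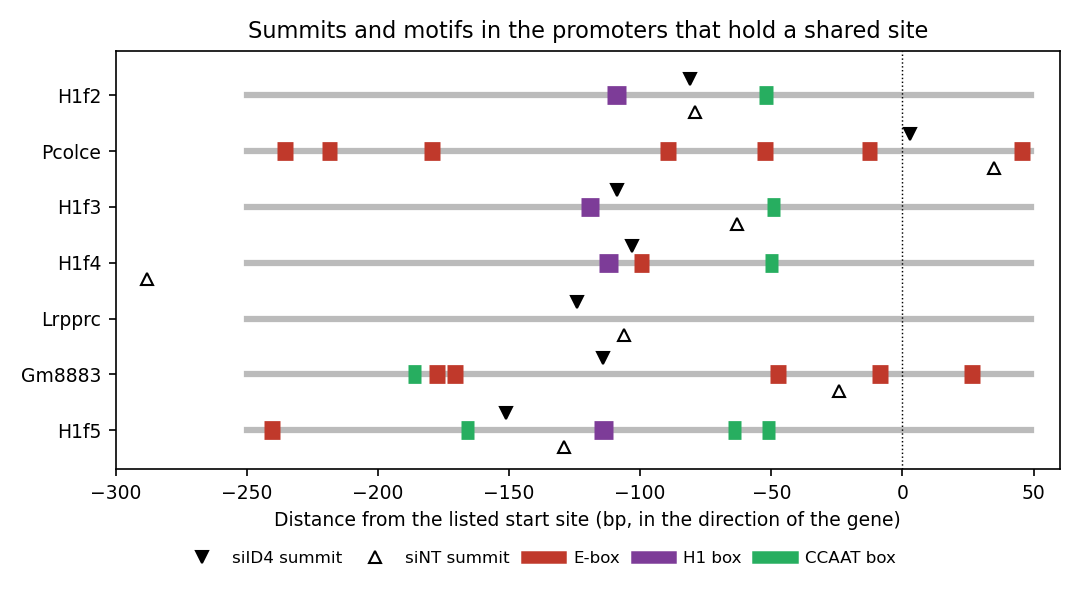
Summits and motifs in the 7 promoters that hold the siID4 summit of a shared pair; the x axis is the distance in bp from the listed start site in the direction of the gene, grey bars are the promoter windows, filled triangles siID4 summits and empty triangles siNT summits. Coloured blocks are E-boxes, H1 boxes and CCAAT boxes; Pcolce has 7 E-boxes and Gm8883 5, while H1f2, H1f3 and Lrpprc have 0, and the siNT summit of H1f4 lies outside the window at -288 bp.

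The summits of a pair usually lay close together. Their distance had a median of 18 bp (quartiles 5.0 and 39.0), against the 200 bp that the rule allowed; 68 pairs were within 10 bp, 155 within 50 bp and 13 were over 100 bp apart. The siNT summit lay at the higher coordinate in 89 pairs, at the lower in 90 and on the same base in 7. The median distance was 14.0 bp among the 93 pairs with the higher mean percentile of score and 25 bp among the other 93, and 6 and 25 of these were over 50 bp apart. No summit had more than 1 partner.

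**Figure D2:**
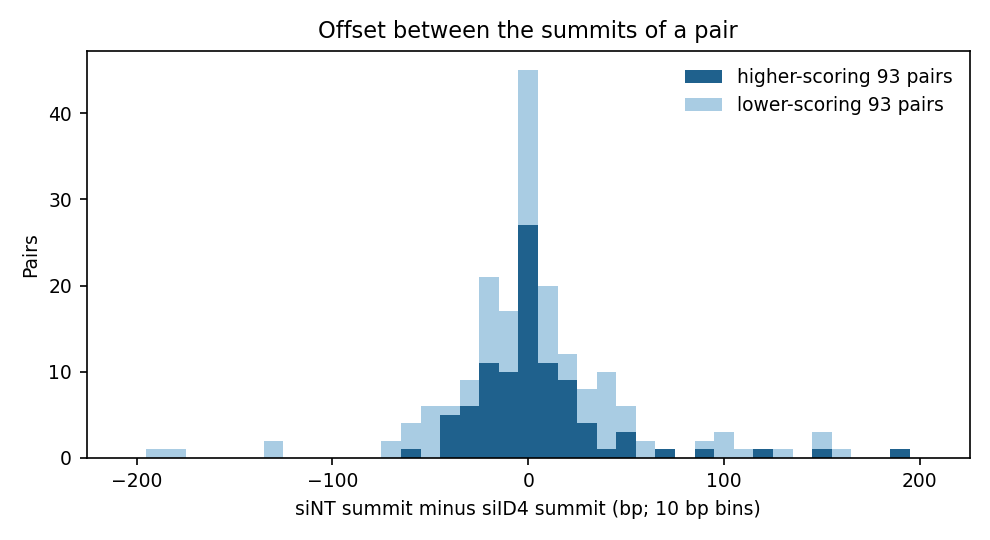
Offset of the siNT from the siID4 summit in the 186 pairs, in bins of 10 bp on the x axis, with the number of pairs on the y axis. Dark bars are the 93 pairs with the higher mean percentile of score and light bars the other 93; most pairs gather within 50 bp of 0 on either side.

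The 7 pairs on the same base were spread over the scores. They lay 3327 bp from Tmem125, 15136 bp from Gm40035, 93914 bp from S1pr3, 33509 bp from Ano6, 31322 bp from Gsap, 52687 bp from Rgs3 and inside Duxf3. S1pr3 encodes a receptor for sphingosine-1-phosphate; its pair had scores of 33.8 (siID4) and 44.4 (siNT). Ano6, which encodes a phospholipid scramblase, had 37.0 and 25.4, and Rgs3, a regulator of G-protein signalling, 9.14 and 11.3. At the limit, the pair farthest apart that still counted was 187 bp wide, near Zfp992, with scores of 2.78 (siID4) and 3.73 (siNT). The nearest summits just outside were 206 bp apart in Dnah12 (3.14 and 5.03), 219 bp apart on chromosome 17, 164502 bp from Tcte2 (14.1 and 10.8), and 263 bp apart in Muc6 (19.4 and 17.2).

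Scores were ranked within each list, since neither the labels nor the lists give the scale of the score. The percentile of a summit is the percentage of the other summits of its whole deposited list that score lower. Pairs had a median percentile of 88.0 in siID4 (quartiles 77.3 and 94.7) and 71.6 in siNT (54.7 and 86.0). The rule favours summits that score well enough to be in both lists, so these levels are a description. Pairs made up 62 of the 66 remaining siID4 summits and 64 of the 65 remaining siNT summits that ranked among the 100 highest of their list. At the other end, 18 pairs were below percentile 50 in the siID4 list, 36 in the siNT list and 15 in both.

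The order of the pairs was similar in the lists. Across the 186 pairs Spearman's rho between the scores was 0.796 and Pearson's r of the log10 scores 0.813. The pairs are not independent replicates, and the lists share a genome and may share inputs, so no p is given. Ranked among the pairs alone, a pair moved by a median of 17.0 places; 101 pairs moved by at most 20 places and 16 by more than 60. Of the 25 highest pairs of each list, 19 were the same.

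**Figure D3:**
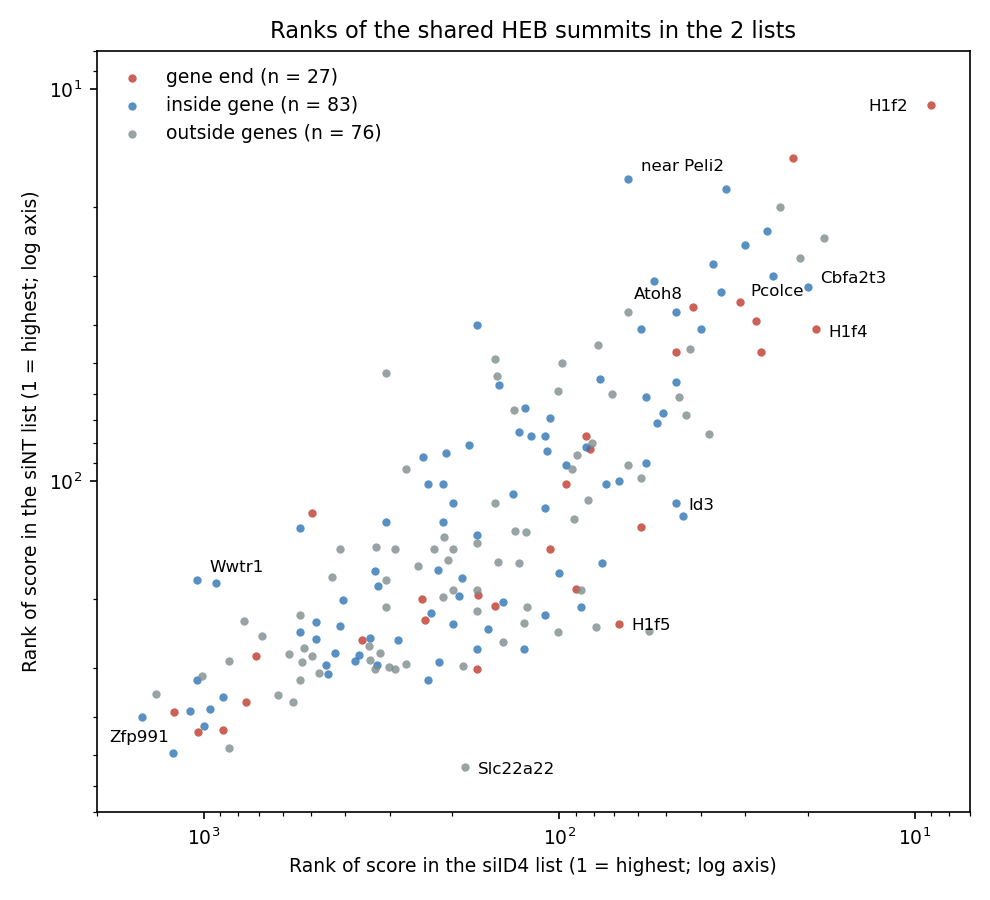
Rank of the score in the siID4 list (x axis, 1 is the highest of 1489) against that in the siNT list (y axis, 1 is the highest of 560) for the 186 pairs, both on reversed log axes, with points coloured by location (27 within 1000 bp of a gene end, 83 inside genes, 76 outside). The pair at H1f2 is the highest in both; the pairs near Wwtr1 and Slc22a22 are examples far from the diagonal cloud.

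The highest pair in both lists was at H1f2, at position 23738726 of chromosome 13, 81 bp upstream of the start. Its scores were 178 (siID4, rank 9) and 157 (siNT, rank 11), and its summits were 2 bp apart. The next pair by mean percentile lay 3327 bp from Tmem125, a transmembrane protein gene, and 841 bp downstream of the start of the long noncoding RNA Gm40237 (75.6 and 103). It was followed by the pair near Gm40035 (68.8 and 74.8) and by one 45460 bp from Cd200, the gene of an immune-regulatory surface glycoprotein (88.8 and 58.2). All 4 ranked among the 24 highest of both lists.

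Several of the highest pairs lay inside genes of cell shape and guidance. Nav1, which encodes a microtubule-associated neuron navigator protein, contained a pair at position 135668470 of chromosome 1 (siID4 score 49.2, siNT score 75.9). Afap1l2, an actin filament-associated adaptor, contained one at 56940042 of chromosome 19 (67.4 and 65.8). Sema5a, a transmembrane semaphorin, contained one at 32328900 of chromosome 15 (67.9 and 48.1). Asap1, a GTPase-activating protein for Arf that acts at focal adhesions, contained one at 64377201 of chromosome 15 (47.7 and 40.0), and a second pair lay 87971 bp from the gene (32.6 and 8.15). These first 4 pairs ranked 25 to 35 in the siID4 list and 18 to 33 in the siNT list. Of the 35 listed cytoskeleton and guidance genes, which do not include Asap1, 3 were linked to a pair (Afap1l2, Nav1 and Sema5a). This was 8.57%, against 0.695% of all 21883 protein-coding genes. Summits found in 1 list only were linked to 4 genes of this list in siNT and 1 in siID4, so such links were not particular to the pairs. The share of all protein-coding genes linked to those summits was not computed. Every gene list was chosen with earlier results of these data known, so its share, here and below, is a description and no measure of enrichment.

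A gene was linked when it was the nearest protein-coding gene to the siID4 summit and at most 100000 bp away. In all, 164 pairs were linked to 152 genes; 67 of the 186 pairs lay inside a protein-coding gene, 97 within 10000 bp of one and 144 within 50000 bp. The members of every list below were read against the 0.695%; long genes and genes far from others can be linked more readily, and that part in the shares was not tested. The 0.695% covers the pairs alone. No such share was computed for summits found in 1 list only, so the counts of genes linked to them are given without a background. Sites near a gene are no measure of its expression.

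Of 29 listed helix-loop-helix and ID genes, 2 were linked to a pair, or 6.90%, and siID4-only summits were linked to 3. Atoh8, a helix-loop-helix factor of the atonal family, contained a pair at position 72216796 of chromosome 6, with scores of 35.4 (siID4, rank 47) and 35.0 (siNT, rank 37). Id3, which encodes another ID protein, had a pair 3242 bp upstream of its start, at position 136140580 of chromosome 4, with scores of 35.4 (rank 47) and 16.5 (rank 114). The siID4 scores of these pairs were equal, and 71 of the 186 pairs shared their siID4 score with another pair. The percentile of the Id3 pair differed by -17.3 points (siNT minus siID4), where the median over all pairs was -10.4. It is not read as a change with Id4 knockdown. Neither Id4 nor the E-protein genes Tcf12, Tcf3 and Tcf4 were linked to a pair.

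Corepressor genes of the ETO family encode proteins that E proteins can recruit through their activation domain. Cbfa2t3, of this family, contained a pair at position 122661264 of chromosome 8, 16911 bp downstream of a listed start, with scores of 82.2 (siID4, rank 20) and 44.4 (siNT, rank 32). Its paralogue Runx1t1 was the nearest gene to a pair at position 13364943 of chromosome 4, but at 377685 bp it was not linked (30.0 and 35.0). Runx3, which encodes a Runt-domain factor, had a pair 24705 bp away with lower scores (9.68 and 12.9). With Cbfa2t3 and Runx3, 2 of the 16 genes listed as ETO and E-protein cofactor genes were linked, or 12.5%, and siID4-only and siNT-only summits were linked to 1 each. Of Cbfa2t3 and Runx3, only Cbfa2t3 is of the ETO family.

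Other regulators of transcription and chromatin are named here for their known roles, chosen after their values were seen, and no count is read from them. Arid3a, an AT-rich interaction domain factor, contained 2 pairs, at 79932925 (42.7 and 49.3) and 79934409 (38.6 and 31.3) of chromosome 10. Jarid2, a subunit of the polycomb repressive complex, contained a pair (36.3 and 15.6), as did Hdac7, a class IIa histone deacetylase (20.0 and 16.3). Bnc2, a zinc-finger gene, contained a pair (12.5 and 15.3), and a higher one lay 65595 bp from it, 149 bp downstream of the start of the noncoding RNA Gm12415 (35.4 and 30.6). There were 3 pairs with Rybp, a polycomb component gene, as their nearest: at 65469 bp (20.7 and 25.2), and, beyond the limit, at 100598 bp (12.7 and 14.0) and 109329 bp (17.2 and 14.3). Gse1 lay 11442 bp from a pair (31.5 and 31.3) and Zbtb10 12304 bp from another (31.5 and 18.3). Of nuclear receptor genes, Esrrb contained a pair (9.14 and 15.3) and Rxra lay 50152 bp from one (21.4 and 8.13).

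Of 22 listed histone genes, 4 were linked to a pair, or 18.2%, and all 4 encode linker histones on chromosome 13. The list was chosen with earlier results of these data known, so its share is a description. H1f4 had scores of 84.8 (siID4) and 31.3 (siNT), H1f3 62.8 and 33.5, and H1f5 29.3 and 8.63; H1f2 was given above. The siID4 summits lay 81 to 151 bp upstream of the start in all 4 genes. The H1f4 summits were 185 bp apart, the widest of the 4, and H1f5 stood at percentile 95.4 in siID4 but 58.7 in siNT. No histone gene of the list was linked to a summit found in 1 list only.

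Among matrix genes, Pcolce and Col3a1 were linked, 2 of 48 or 4.17%. The pair at Pcolce, whose product enhances procollagen processing, lay at position 137611401 of chromosome 5, 3 bp downstream of the start, with scores of 55.6 (siID4, rank 31) and 35.9 (siNT, rank 35). The pair near Col3a1, a fibrillar collagen gene, was 23392 bp upstream of the start (23.5 and 19.0). Outside the list and named after their values were seen, pairs lay near genes of matrix polysaccharides: 2030 bp from Has1, a hyaluronan synthase (20.0 and 22.9), 44204 bp from Gpc1, a heparan sulfate proteoglycan (22.1 and 29.1), 37711 bp from Hs6st1, a heparan sulfate sulfotransferase (26.2 and 16.6), 72353 bp from Xylt1, which starts glycosaminoglycan chains (14.2 and 21.6), and 4401 bp from Ext1, a heparan sulfate polymerase (8.65 and 13.1). Summits found in 1 list only were linked to 5 genes of the matrix list in siID4 and to 3 in siNT.

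In the Wnt list, 2 of 29 genes were linked, or 6.90%, and siID4-only summits were linked to 2 as well. Tcf7l1, a repressive transcription factor of the Wnt pathway, contained 2 pairs, at 72711926 (32.3 and 26.3) and 72655501 (8.02 and 7.74) of chromosome 6. The lower of these lay 243 bp downstream of the start of the noncoding RNA Gm31391. Wnt10a, a Wnt ligand, had a pair 4093 bp away (13.1 and 12.9). In the Notch list 1 of 18 genes was linked (5.56%): Maml3, a coactivator of the Notch complex, with a pair 74605 bp away (25.6 and 22.9). In the TGF-beta and BMP list 1 of 26 was linked (3.85%): Tgfbr3, the coreceptor betaglycan, 19122 bp away (6.35 and 7.74). In the YAP and adhesion list 1 of 23 matched genes was linked (4.35%): Wwtr1, which encodes the YAP paralogue TAZ and contained its pair (2.81 and 11.3). Of the last 3 lists, siID4-only summits were linked to 1 TGF-beta and BMP gene and 1 YAP and adhesion gene, and siNT-only summits to 1 TGF-beta and BMP gene. Outside the lists, Smo, the Hedgehog signal transducer, contained a pair of modest scores (8.85 and 6.20) and Prkca, a protein kinase C, another (11.3 and 17.7).

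Markers of mammary and other cell types were mostly without a pair. None of the 22 basal and 28 luminal epithelial genes was linked to a pair, nor any of the 20 AP-1 and early-response genes, 15 fibroblast markers, 15 immune markers or 23 ribosomal protein genes. A share of 0 is near the background of 0.695%, so nothing is read from it. The endothelial marker Cdh5, a cadherin, was the 1 of 15 linked, with a pair 78343 bp away (29.3 and 18.1). Summits found in the siID4 list only were linked to 2 endothelial, 2 fibroblast, 2 AP-1 and 1 luminal gene, and those of the siNT list only to 1 luminal gene. Plec, whose product plectin links intermediate filaments to hemidesmosomes, lies outside the lists and contained a pair at 76196785 of chromosome 15 (22.8 and 19.6).

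Near protein-coding gene ends, 16 pairs had a start or an end at most 1000 bp away. Besides the 4 linker histone genes, Pcolce and Lrpprc, these included Fhl3, a LIM-domain protein gene of muscle, where the pair lay 471 bp beyond the 3′ end (37.8 and 35.8). Pairs lay 116 bp beyond the 3′ end of Sh3d21 (26.3 and 21.3), 782 bp inside that of Ccdc97 (31.5 and 14.7) and 38 bp from an end of Tmem119 (15.5 and 9.75). At Lrpprc the pair was at position 84790910 of chromosome 17, 124 bp upstream of the start, with scores of 64.6 (siID4) and 30.6 (siNT). The remaining 6 were at the hair keratin-associated genes Krtap1-5, Krtap1-3 and Gm11563, at the double-homeobox gene Duxf3, and at Gm6408 and Eif4a3l1. Their siID4 scores ran from 2.33 to 14.3 and their siNT scores from 3.04 to 15.7. Krtap and Dux genes are families of similar copies; mappability was not analysed here.

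By listed start sites, 16 of 184 pairs were within 1000 bp of a start, 8 upstream and 8 downstream. Of these starts 9 belonged to protein-coding genes and 7 to long noncoding RNAs: Gm40237, Gm12415, Gm33448, Gm46162, Gm8883, Gm41591 and Gm31391. Most pairs were distal, with 133 over 10000 bp from a listed start and a median distance of 21200 bp. The table lists a start for 17491 of the 21883 protein-coding symbols, so some pairs may be nearer to a start than shown.

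The location of the pairs was set beside that of summits found in 1 list only, with and without those of low score. Within 1000 bp of an end of any annotated gene lay 14.5% of pairs (9.79 to 20.4), 8.31% of the 770 siID4-only summits (6.46 to 10.5) and 9.60% of the 177 siNT-only summits (5.70 to 14.9). For siID4-only summits scoring at least as high as the lower quartile of the pairs, the share was 14.3% of 91 (7.83 to 23.2), and for such siNT-only summits 11.1% of 27 (2.35 to 29.2). For protein-coding gene ends the shares were 8.60% of pairs (5.00 to 13.6), 2.08% of siID4-only (1.19 to 3.35) and 3.95% of siNT-only summits (1.60 to 7.98), and 4.40% (1.21 to 10.9) and 7.41% (0.910 to 24.3) among the higher-scoring ones. Inside genes but away from ends lay 44.6% of pairs, 46.0% of siID4-only and 41.2% of siNT-only summits. No test over summits was made, since summits are not replicates and the pairs were also selected on score; the shares are a description.

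Promoter windows held 7 of 184 pairs (3.80%, 1.54 to 7.68), 1 of 769 siID4-only summits (0.130%, 0.00329 to 0.722) and 2 of 177 siNT-only summits (1.13%, 0.137 to 4.02). Of the 7, 4 are the linker histone promoters, which share sequence with each other. Among siID4-only summits of higher score it was 0 of 91, which allows up to 3.97%, and among those of siNT 1 of 27 (3.70%).

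**Figure D4:**
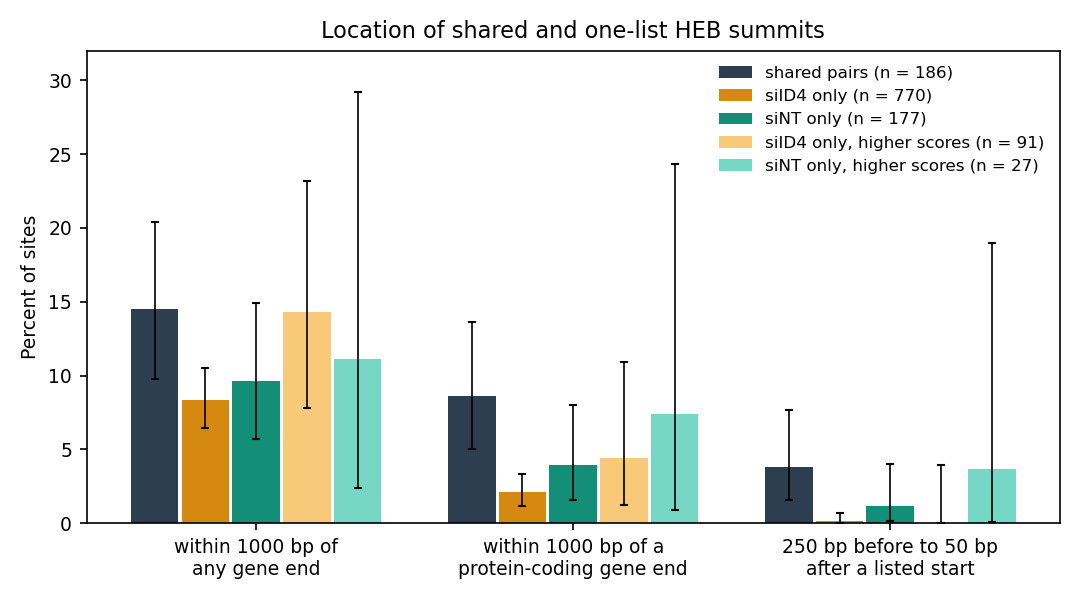
Percent of sites (y axis) within 1000 bp of any gene end, within 1000 bp of a protein-coding gene end, and in a promoter window, for the shared pairs, siID4-only and siNT-only summits; error bars are exact 95% binomial intervals. Higher scores are those at or above the lower quartile of the pairs; near any gene end the pairs stand at 14.5% and the higher-scoring siID4-only summits at 14.3%.

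In 165 pairs the percentile was higher in the siID4 list and in 21 in the siNT list, with a median difference of -10.4 percentile points (siNT minus siID4). Percentiles were taken within lists of different make-up: the pairs were 19.5% of the remaining siID4 summits and 51.2% of the remaining siNT summits. The split is therefore not read as a change in binding, nor as a lack of change. The largest single difference was at a pair 90473 bp from Slc22a22, at position 57568098 of chromosome 15, with percentiles of 87.7 (siID4) and 4.11 (siNT) and summits 157 bp apart. The other 9 pairs with the largest differences in this direction had differences of -36.8 to -43.0 points. They lay at or near Gm11563, Zfp978, Gm34531, Aldh1l1, Asap1, Tmem267, Rxra and H1f5, and 157480 bp from Gm41291. Aldh1l1, a folate enzyme gene, contained its pair (18.1 in siID4 and 7.15 in siNT).

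In the opposite direction Wwtr1 led, with percentiles of 27.02 (siID4) and 68.0 (siNT), a difference of 41.0 points at position 57487502 of chromosome 3. Zfp600, Mid1 and Zfp991 followed, with differences of 28.7 to 29.5 points. The remaining 6 of the 10 differed by 11.5 to 14.7 points: in or near Mical2, an actin-oxidizing monooxygenase gene, Krtap1-3, Eif4a3l1, Sepsecs and Scaf8, and 165380 bp from Tcte2. Without replicate values no rank difference has an error, and none is read as a change with Id4 knockdown.

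In all, 12 genes were linked to 2 pairs each: Arid3a, Asap1, Atg4a, Bnc2, Crabp1, Tcf7l1, 9530057J20Rik, Gm10354, Gm52481, Mid1, Scaf8 and Zfp978. Both pairs in Atg4a, a gene of autophagy, lay in its body, at 140997360 and 140998247 of the X chromosome. Those of 9530057J20Rik and Gm10354 lie just beyond the bins left out of chromosomes 8 and 5, in stretches with 7 and 11 other siID4 summits within 100 kb. After the data were seen, pairs were set apart that lay below 4 Mb of a chromosome, on Y or at the far end of X (9 pairs), or had 3 or more other summits of either list within 100 kb (25 pairs). Together these were 29 pairs, among them those near Scaf8, Mid1, Zfp978, Krtap1-5 and Duxf3; 9 were among the higher-scoring 93 pairs and 20 among the lower-scoring. They included 3 of the 25 highest pairs, the 2 in Arid3a and 1 at position 3004844 of chromosome 18, 117648 bp from Vmn1r238. Whether repeated sequence played a part was not tested. Of the 22 pairs with no protein-coding gene within 100000 bp, 4 were among the 25 highest: those nearest to Cryba4 (80.3 and 49.7), Peli2 (30.0 and 82.2), Vmn1r238 (37.3 and 30.6) and Runx1t1.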

How the data were processed

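Chromatin precipitated with an HEB antibody was sequenced from Comma-Dβ cells treated with siID4 or siNT (3 libraries each), with 4 input libraries; groups were taken from the labels. The authors deposited 1 summit list per siRNA, in which each summit has 1 score. The scale of this deposited score is not stated; the lowest values lie just above 1.30, the −log10 of 0.05. Per the submitters' processing notes SAMtools and the mm10 build were used; the aligner and peak caller, and any pooling of libraries, were not given in the sources used here. Depth per library is therefore unknown.

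The lists were read with Python 3.11.15, numpy 2.4.6 and pandas 2.3.3, and exact (Clopper-Pearson) 95% intervals came from scipy 1.17.1. An siID4 and an siNT summit were paired when each was the nearest of the other list and they were at most 200 bp apart. Pairing used the whole lists, and pairs with a summit in the regions named in the report were then left out. Summits were placed against the RefSeq gene table and promoter sequences of GRCm38.p6. A site counted as at a gene end up to 1000 bp from it, and linking reached 100000 bp. Pairing was checked on simulated data, while ranking and motif search were not. All columns of the lists were assigned. No genome sequence was used, so motifs were searched in promoter windows alone.

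The members and gene lists were chosen with earlier results of these data known. Genes were named by rule: those linked to the 25 pairs with the highest mean percentile, those with a pair within 1000 bp of a protein-coding gene end, pairs on the same base, the 10 largest percentile differences in each direction, the 5 genes with most pairs (12 tied at 2 pairs), linked members of the gene lists, pairs next to the distance limit and up to 10 promoters holding a summit. Genes named outside it are said to be so. Alternatives changed the pairing distance, the score minimum, the regions left out, the gene classes, the linking distance and the motif distance.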

Additional observations from a re-analysis of the deposited data

How the results depend on the processing

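The comparison rests on 1 list per siRNA, so a site missing from a list may lie just under the threshold of the authors' caller, and no result has an error between libraries. No paired analysis was possible because the lists hold no value per library and the results come from no test; for the same reason no replicate could be left out. Of 68 alternative values, 50 stayed inside the binomial interval of the reported share or, for counts, medians and correlations, within 1.5 times the reported value, and 18 did not.

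The share of siID4 summits that were paired was 16.2% with a limit of 50 bp, 31.4% among summits at or above the median score of their list, 40.0% among scores of at least 5 and 16.4% with only the unplaced scaffolds left out. For siNT the shares were 42.7%, 78.8% and 72.1% with the first 3 of these settings. With no region left out there were 290 pairs. The share at gene ends was 25.3% with a limit of 3000 bp and 8.60% with protein-coding genes alone, which put 32.3% inside and 59.1% outside genes. Linking within 10000 bp left 97 pairs and 92 genes. Within 50 bp of the summit, 28.6% of the 7 promoters held an E-box, against 100% of the 1 siID4-only and 2 siNT-only promoters, and 100% of the 1 siNT-only promoter in the range of scores of the pairs; these numbers are too small to compare. Spearman's rho stayed between 0.775 and 0.798 in every setting run. Leaving out crowded sites and assembly edges, and comparing with higher-scoring summits of 1 list, were chosen after seeing the data. With crowded sites and assembly edges left out, rho was 0.798 and the share at gene ends 14.6%.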
